A study of Mus musculus with 25 samples.

Results

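Interferon-stimulated genes were described in gonadal white fat of male ApoE3L.CETP mice, a strain with human transgenes that give it a lipoprotein profile closer to that of people. The set held 39 genes listed by symbol, and 35 of the 22180 genes measured by the array belonged to it. Oas1a, Gbp2 and Ifi47 were covered only by probe sets shared with another gene (Oas1g, Gbp2b and Olfr56), Ifi44 had no probe set, and these 4 were left out. By their usual inducer 27 of the 35 were put in a class leaning to type I interferon and 8 (Irf1, Cxcl9, Cxcl10, Gbp3, Gbp5, Gbp7, Igtp and Irgm1) in a class leaning to interferon gamma, although most respond to both.

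Expression was read on 25 Affymetrix Mouse Gene 2.0 ST arrays, 1 mouse each, from the gonadal fat of heterozygous animals. Mice changed diet at 12 weeks of age. A low-fat diet (LFD, 10% fat, 70% carbohydrate, 20% protein) was eaten for 4, 8 or 12 weeks by 4 mice at each time, and a high-fat diet (HFD, 60% fat, 20% carbohydrate, 20% protein, 0.25% cholesterol) by 3, 4 and 4 mice. A further 2 mice aged 12 weeks and kept on chow gave the baseline. The labels put the ages of the diet groups at 16, 20 and 34 weeks, so that the longest groups are labelled older than their time on diet would make them. Every group carried the transgenes, so no array shows a wild-type mouse, and the chow mice differ from the others in age as well as in diet.

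Interferons are secreted warning signals. Type I interferons act through the receptor pair Ifnar1 and Ifnar2, and interferon gamma through Ifngr1 and Ifngr2. Both use JAK kinases and STAT factors to switch on a shared programme of antiviral enzymes, GTPases, RNA and DNA sensors and chemokines. In fat of obese animals the programme is usually studied in macrophages and T cells as well as in adipocytes themselves. A factor that contains Stat2 and Irf9 binds the interferon-stimulated response element (ISRE), and the gamma-activated site (GAS) is a further element in promoters of the programme.

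Promoter stretches are shown for 5 members to illustrate these elements: Isg15 and Ifit1 as classical type I targets, Cxcl10 because it was among the genes that differed between the diets, and Gbp3 and Irf1 as gamma-responsive genes. The sequences are from RefSeq on build GRCm38.p6, printed in the direction of transcription, with letters that match the ISRE search (a pair of GAAA runs set 2 bases apart, on either strand) or, in Irf1, the GAS search (TTCNNNGAA, which reads alike on both strands) in capitals. They lie at chr4:156200850-156200909 (minus strand, Isg15), chr19:34640779-34640838 (plus, Ifit1), chr5:92349068-92349127 (minus, Cxcl10), chr3:142559980-142560039 (plus, Gbp3) and chr11:53769899-53769957 (plus, Irf1).
Isg15: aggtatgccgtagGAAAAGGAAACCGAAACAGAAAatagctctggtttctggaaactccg
Ifit1: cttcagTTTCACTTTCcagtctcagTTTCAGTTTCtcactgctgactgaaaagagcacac
Cxcl10: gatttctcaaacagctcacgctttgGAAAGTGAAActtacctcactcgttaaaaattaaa
Gbp3: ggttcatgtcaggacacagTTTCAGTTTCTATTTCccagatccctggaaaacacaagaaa
Irf1: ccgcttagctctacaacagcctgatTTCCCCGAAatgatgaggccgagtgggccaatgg
A promoter entry was found for 31 of the 39 listed genes, 27 of them measured. In the 250 bases before the start, the ISRE letters stood in 16 of the 31 (51.6%), against 936 of all 27025 genes (3.46%). The GAS letters stood in 8 of the 31 (25.8%) and in 2197 of all genes (8.13%). By class, the ISRE letters were found in 7 of 10 gamma-leaning and 9 of 21 type I-leaning genes. Of the genes that differed between the diets below, Cxcl10 held the ISRE letters, and the windows of Ifi209, Oasl1 and Ddx58 held neither motif; Zbp1 and Parp14 had no entry. These matches describe letters, not bound sites.

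The arrays carried the markers of fat in every mouse: the adipocyte list (8 genes, among them Adipoq and Plin1) averaged 11.22 to 12.35 on the log2 scale, while the middle of all probe sets was 5.14. Tissue other than fat was present in some arrays. A list of 27 hepatocyte genes averaged at least 9.20 in 11 arrays and at most 7.56 in the other 14, and the 11 were 2 of 4 LFD and 3 of 4 HFD arrays at 8 weeks and 3 of 4 of each diet at 12 weeks. The same 11 arrays gave 5.03 or more for Xist, which females transcribe from their inactive X chromosome, against 3.92 or less in the other 14, although all mice are labelled male. Epididymis genes (14) averaged 12.0 in chow array 1, 10.28 in HFD 4-week array 1 and 5.46 in LFD 4-week array 1, and 4.05 or less elsewhere. The called results are also given without these arrays, further on.

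Only Mx1 and Mx2, which encode dynamin-like antiviral GTPases, had a mean below the middle of all probe sets. Lying above that middle does not by itself show expression. The epididymis gene Wfdc10 read 6.11 in chow array 2, where the epididymis list averaged 4.02. Members with a lower mean over the 25 arrays than that reading included Oasl1 (5.77), Cxcl10 (6.02) and Ifi209 (6.06). The mean of the 35 genes was 6.76 ± 0.43 in chow (SD, n = 2), 7.25 ± 0.04 in LFD and 7.18 ± 0.09 in HFD mice at 4 weeks (n = 4 and 3), 7.23 ± 0.09 and 7.55 ± 0.19 at 8 weeks (n = 4 each), and 7.12 ± 0.11 and 7.34 ± 0.15 at 12 weeks (n = 4 each). The HFD mice at 8 weeks stood at the top: they had the highest group mean for 25 of the 35 genes, followed by the HFD mice at 12 weeks with 6. Chow had the lowest mean for 25 genes and the LFD mice at 12 weeks for 6.

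**Figure D1:**
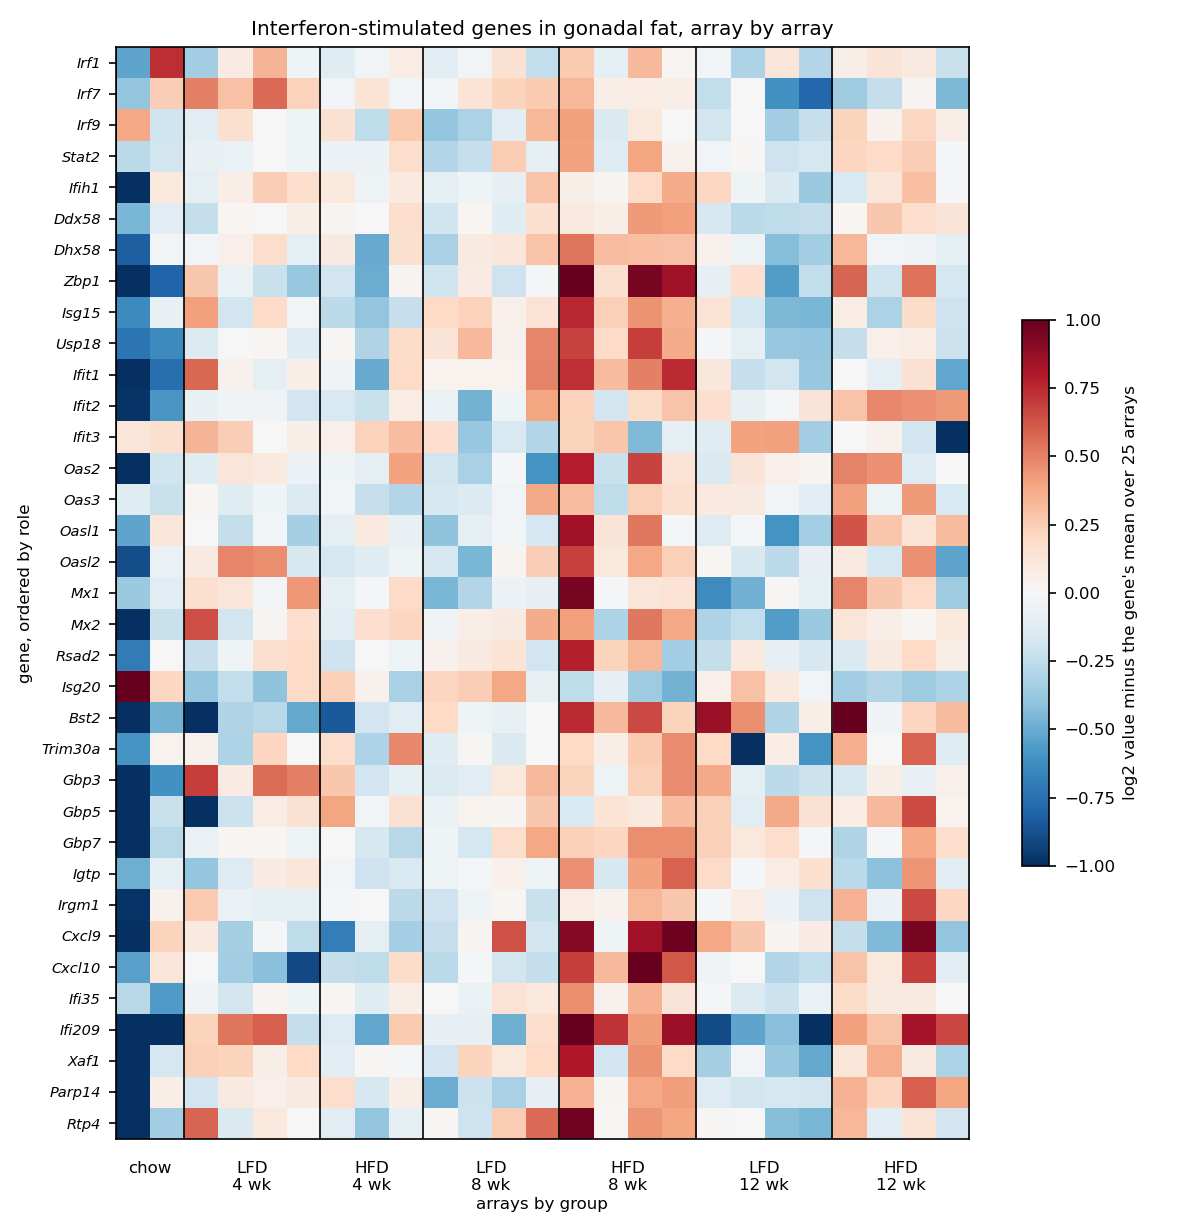
Each row is 1 of the 35 interferon-stimulated genes, ordered by role, and each column 1 of the 25 arrays by group; colour is the log2 value minus that gene's mean over all arrays, with the scale ending at 1 on either side. Chow array 1 is the bluest column (lowest of the 2 chow arrays for 31 genes) and HFD 8-week array 1 the reddest (highest of its group for 17 genes), while Isg20 runs the other way.

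To ask how the high-fat diet affected the programme, HFD mice were compared with LFD mice at each time by limma, and a gene was called at a Benjamini-Hochberg adjusted p under 0.05 over all 22180 genes. At 4 weeks 0 members were called (0.212% of all genes were), 2 were lower at an unadjusted p under 0.05 (9.33% of all genes in either direction) and an analysis of variance also called 0. At this time 14 of 35 members were above 0 and the median log2 difference was -0.05, against 49.7% and -0.00 for all genes. At 8 weeks 33 of 35 were above 0 with a median of 0.28 (all genes 48.1% and -0.01), and 3 rose: Ifi209, Cxcl10 and Zbp1 (8.57%, against 1.17% of all genes called higher). At 12 weeks 30 of 35 were above 0 with a median of 0.19 (all genes 48.0% and -0.01), and 2 rose, Ifi209 and Oasl1 (5.71%, against 3.13%). Averaged over the 3 times, 5 rose (14.3%, against 6.03%): Ifi209, Cxcl10, Oasl1, Parp14 and Ddx58. No member was called lower in these comparisons. The 8-week count was 0 without HFD array 1 or without LFD array 1 or 3 of that time, 1 without HFD array 3 or 4 or LFD array 2 or 4, and 5 without either chow array, since all arrays share the estimate of spread. The 12-week count was 4 without either chow array and 1, Ifi209 alone, in 15 of the 25 omissions, which are 15 of the 16 that cost Oasl1 its call.

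Array by array, the diets did not overlap for 11 members that were higher in HFD at 8 weeks (5.01% of all genes) and 8 at 12 weeks (7.52% of all genes), while Isg20 was lower in HFD without overlap at both times (6.42% and 5.08% of all genes). At 4 weeks 0 members were higher without overlap (4.68% of all genes) and 3 were lower, Irf7, Isg15 and Xaf1 (4.41% of all genes). Both classes leaned up at 8 weeks, with medians of 0.28 for the gamma class, all 8 above 0, and 0.28 for the type I class, 25 of 27 above 0. At 12 weeks the medians were 0.06 (5 of 8 above 0) and 0.24 (25 of 27 above 0). Whether the diet effect changed with time was tested as an interaction: 0 of 35 members and 0 of 22180 genes (0%) were called by limma, and the analysis of variance called 0 members. At an unadjusted p under 0.05 there were 3 members (8.57%; all genes 5.41%), Ifi209, Zbp1 and Isg15.

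**Figure D2:**
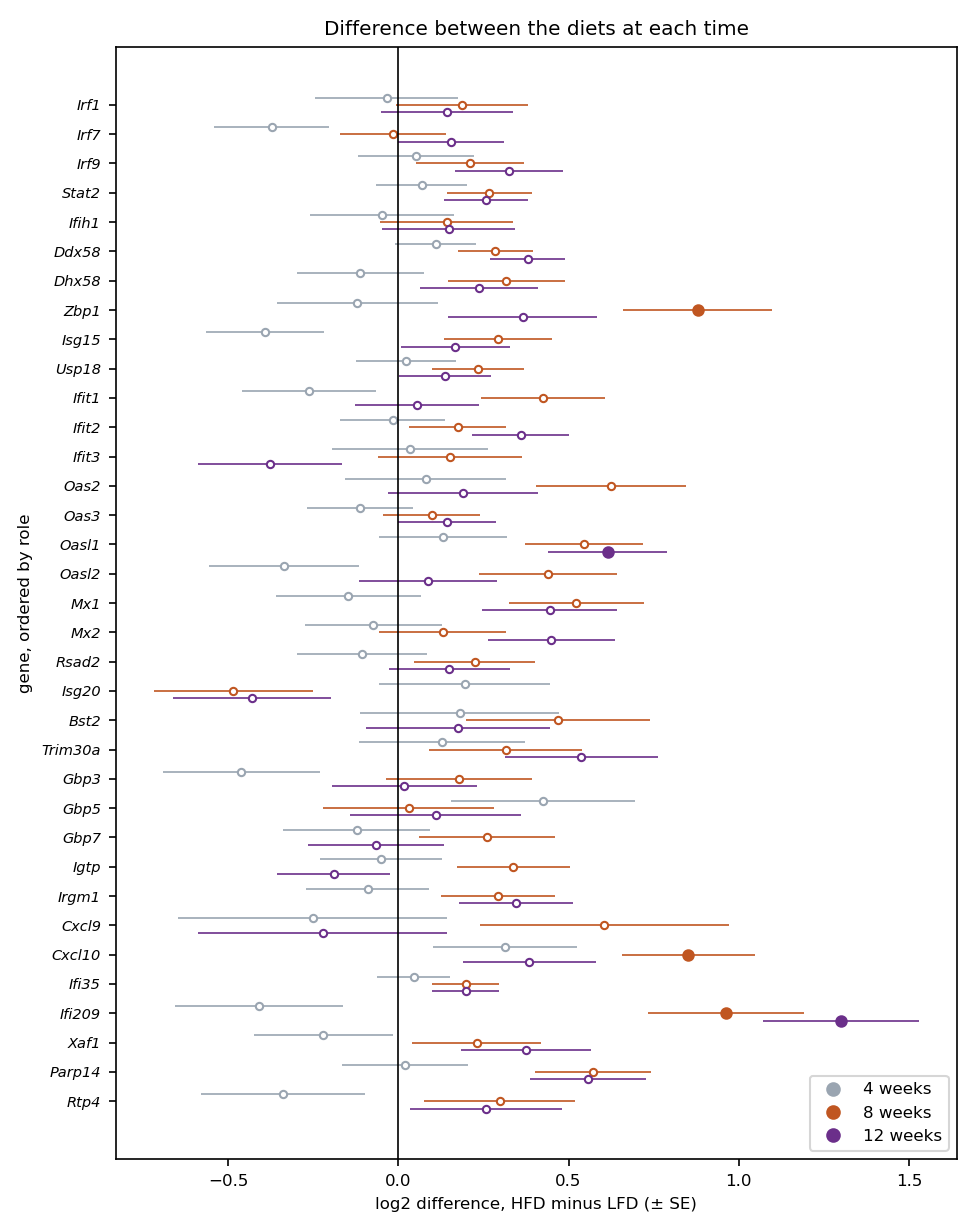
Log2 difference between HFD and LFD (horizontal axis, with its standard error from limma) for each of the 35 genes at 4, 8 and 12 weeks; filled points passed the adjusted p of 0.05. Most 8-week and 12-week points lie to the right of 0, the 4-week points lie on both sides, and Ifi209 at 12 weeks (1.30) is farthest from 0.

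Ifi209 belongs to the IFI200 family of interferon-inducible nuclear proteins, a cluster of close relatives that a probe set may not fully tell apart. Its log2 values in HFD mice at 8 weeks were 7.44, 6.78, 6.48 and 6.92, against 5.98, 5.98, 5.57 and 6.24 in LFD mice. At 12 weeks they were 6.47, 6.35, 6.89 and 6.73 on HFD and 5.17, 5.53, 5.64 and 4.90 on LFD. The diets did not overlap at either time, every HFD array being the higher. At 4 weeks they did: HFD mice read 5.93, 5.54 and 6.32 and LFD mice 6.28, 6.60, 6.66 and 5.82. The log2 difference was 0.96 ± 0.23 at 8 weeks (limma, adjusted p = 0.0280), 1.30 ± 0.23 at 12 weeks (2.46-fold, adjusted p = 0.00188) and -0.41 ± 0.25 at 4 weeks (adjusted p = 0.654). The interaction had an unadjusted p of 0.000116 and an adjusted p of 0.856 in limma. Among the arrays with high hepatocyte transcripts the 12-week difference was 1.32 ± 0.17, and among the others 1.25 ± 0.50 with 1 mouse per diet. It stayed called at 12 weeks when any 1 of the 25 arrays was left out (1.16 to 1.41). The 8-week call was lost without HFD array 1 or 4 or LFD array 1, 2 or 3, with differences of 0.78 to 1.10 over all such omissions.

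**Figure D3:**
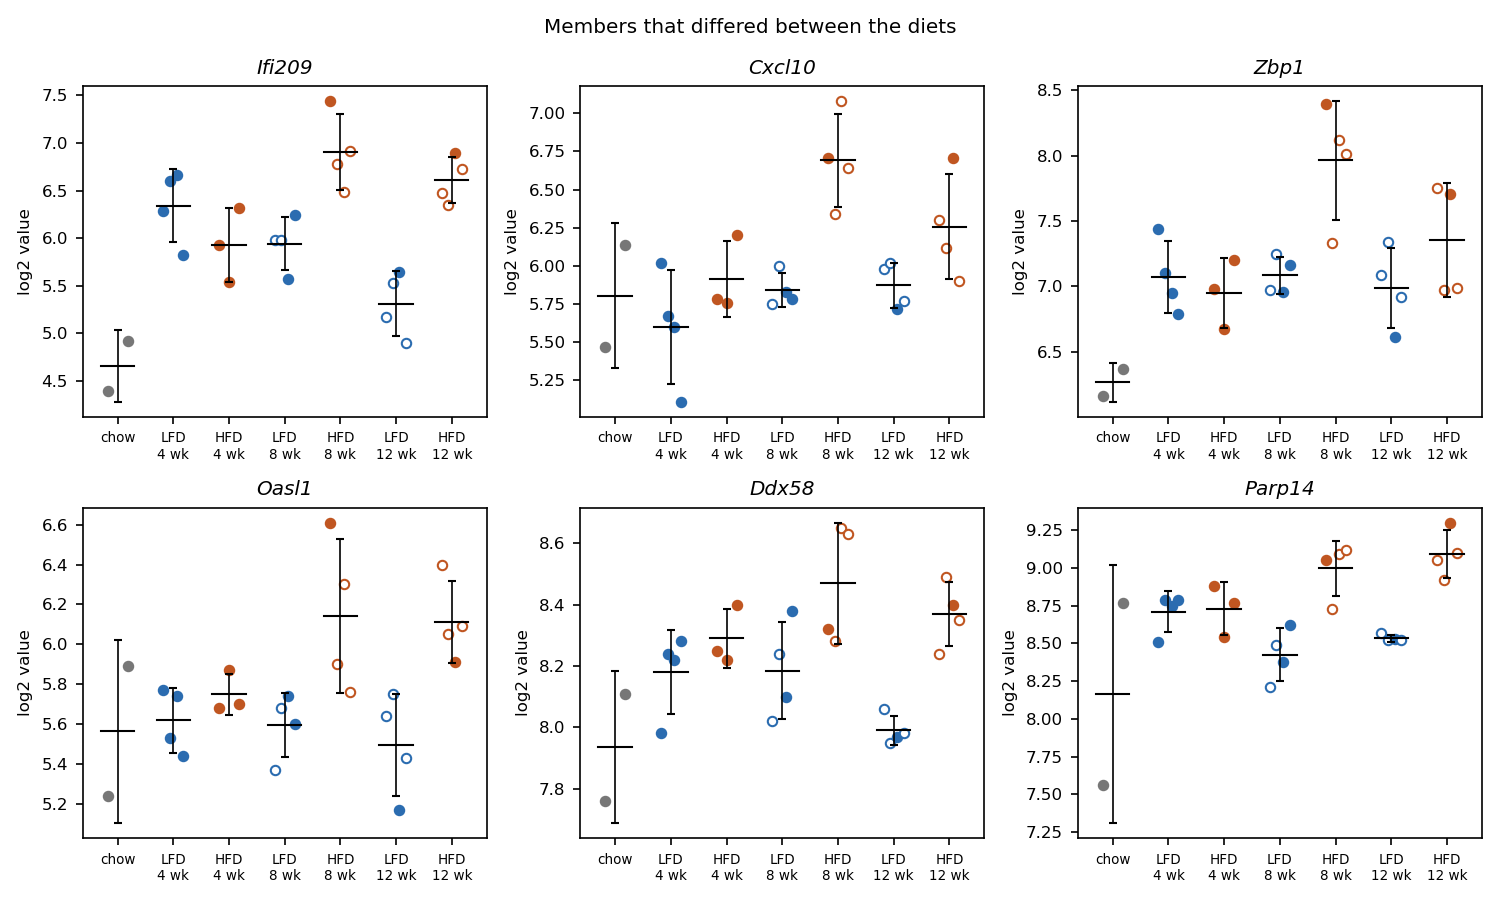
Log2 values by group for the 6 members called in a diet comparison; each point is 1 array, the bar is the group mean and the whisker 1 SD, and open points are the 11 arrays with high hepatocyte transcripts. Ifi209 separates the diets at 8 and 12 weeks but not at 4 weeks, and Cxcl10 and Zbp1 are highest in HFD mice at 8 weeks.

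Among the sensors of foreign nucleic acid, Zbp1, which recognises Z-form nucleic acid and can start necroptosis, rose at 8 weeks. HFD mice read 8.40, 7.33, 8.12 and 8.01, against 6.97, 7.25, 6.96 and 7.16 in LFD mice, so the groups did not overlap but HFD array 2 lay close to the LFD range. The difference was 0.88 ± 0.22 (limma, adjusted p = 0.0344). At 12 weeks HFD mice read 7.75, 6.97, 7.71 and 6.99 and LFD mice 7.09, 7.34, 6.61 and 6.92. There the groups overlapped, and the difference was 0.37 ± 0.22 (limma, adjusted p = 0.453). The 8-week call rested on few arrays: it was lost without HFD array 1, 3 or 4 or any of the LFD arrays, with differences of 0.74 to 1.09.

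Ddx58 encodes RIG-I, a sensor of viral RNA in the cytoplasm. In HFD mice it read 8.32, 8.28, 8.65 and 8.63 at 8 weeks and 8.24, 8.49, 8.40 and 8.35 at 12 weeks. The LFD mice read 8.02, 8.24, 8.10 and 8.38 at 8 weeks and 8.06, 7.95, 7.97 and 7.98 at 12 weeks. Only at 12 weeks were the diets apart in every array. Averaged over time the gene was 0.26 ± 0.07 higher on HFD (limma, adjusted p = 0.0115), a call kept with any 1 array left out; at 12 weeks alone it was 0.38 ± 0.11 higher with an adjusted p of 0.0512. Ifih1 (MDA5), which detects long double-stranded RNA, differed by 0.14 and 0.15 at 8 and 12 weeks, and Dhx58 (LGP2), a modulator of both, by 0.32 and 0.24; neither was called.

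Of the 4 regulators among the members, Irf1, Irf7, Irf9 and Stat2, none was called between the diets. Stat2, a subunit of the factor that binds the ISRE, differed by 0.27 ± 0.12 at 8 weeks and 0.26 ± 0.12 at 12 weeks (limma, adjusted p = 0.336 and 0.310). Its partner Irf9 was higher in HFD mice in every array at 12 weeks, with 7.97, 7.79, 7.95 and 7.81 against 7.56, 7.74, 7.40 and 7.52, a difference of 0.33 ± 0.16 (limma, adjusted p = 0.317). Irf1, the main factor induced by interferon gamma, differed by 0.19 and 0.14. Irf7 amplifies the type I response, and its 4-week values of 7.92, 8.08 and 7.92 on HFD lay below all LFD values of 8.45, 8.24, 8.51 and 8.18, by 0.37 ± 0.17 (limma, adjusted p = 0.501).

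Of the ISG15 system, Isg15 itself, a ubiquitin-like protein attached to other proteins, took opposite sides at the first and second time. At 4 weeks HFD mice read 5.93, 5.79 and 5.96, below LFD values of 6.60, 6.00, 6.38 and 6.16. At 8 weeks HFD mice read 6.94, 6.43, 6.64 and 6.54, above LFD values of 6.39, 6.42, 6.24 and 6.33. The groups did not overlap at either time, but the gap at 8 weeks was narrow. The differences of -0.39 ± 0.17 and 0.29 ± 0.16 did not pass the test in limma (adjusted p = 0.478 at 4 weeks), nor did the interaction (unadjusted p = 0.0199, adjusted p = 0.886). Usp18, the protease that removes ISG15 and restrains Ifnar2 signalling, differed by 0.02, 0.23 and 0.14 at 4, 8 and 12 weeks.

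The IFIT proteins bind viral RNA ends and block its translation. Ifit1 was 0.42 ± 0.18 higher on HFD at 8 weeks, with overlapping arrays (8.13, 7.71, 7.90 and 8.14 against 7.43, 7.43, 7.43 and 7.89), and 0.06 higher at 12 weeks. Ifit2 was 0.36 ± 0.14 higher at 12 weeks, with HFD values of 6.29, 6.48, 6.46 and 6.43 all above LFD values of 6.17, 5.93, 5.99 and 6.13. Ifit3 went the other way at 12 weeks by -0.38 ± 0.21, where HFD array 4 read 5.10 and the other HFD arrays 5.93 to 6.16. None of the 3 was called in a diet comparison.

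In the OAS family, Oasl1, an OAS-like protein that lacks the synthetase activity of its relatives and restrains Irf7 translation, rose. HFD mice at 12 weeks read 6.40, 6.05, 5.91 and 6.09, above LFD values of 5.64, 5.75, 5.17 and 5.43. At 8 weeks HFD values of 6.61, 5.90, 6.30 and 5.76 stood above LFD values of 5.37, 5.68, 5.74 and 5.60, with a gap of hardly any width. The difference averaged over time was 0.43 ± 0.10 (limma, adjusted p = 0.00798), and this call was kept with any 1 array left out. At 12 weeks alone it was 0.61 ± 0.17 (adjusted p = 0.0447), and that call was lost in 16 of the 25 omissions, each HFD 12-week array and LFD 12-week arrays 1, 3 and 4 among them (0.51 to 0.70). Oas2, a maker of the 2-5A signal for RNase L, was 0.63 ± 0.22 higher at 8 weeks (limma, adjusted p = 0.158), where HFD arrays 1 and 3 read 8.69 and 8.58 and arrays 2 and 4 read 7.68 and 8.04. Oas3 differed by 0.10 and 0.14 and Oasl2 by 0.44 and 0.09 at 8 and 12 weeks, with no call.

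Other antiviral effectors gave no call between the diets. Mx1 was higher in every HFD array at 8 weeks, at 4.84, 3.88, 4.01 and 4.03 against 3.43, 3.60, 3.83 and 3.81, a difference of 0.52 ± 0.20 (limma, adjusted p = 0.198). Mx2 was higher in every HFD array at 12 weeks, at 4.96, 4.91, 4.86 and 4.95 against 4.53, 4.60, 4.28 and 4.47, a difference of 0.45 ± 0.19 (adjusted p = 0.214). Both are dim on this array. Bst2 (tetherin), which holds budding virions at the cell surface, differed by 0.47 and 0.17 at 8 and 12 weeks, Trim30a, a TRIM protein that dampens inflammatory signalling, by 0.31 and 0.54, and Rsad2 (viperin) by 0.22 and 0.15.

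Isg20, a 3' to 5' exonuclease, was lower on HFD at 8 and 12 weeks, against the lean of most members. At 4 weeks it was 0.195 higher on HFD, with overlapping arrays. Ifit3, Cxcl9, Igtp and Gbp7 were also below 0 at 12 weeks. At 8 weeks it read 8.06, 8.23, 7.96 and 7.84 on HFD and 8.53, 8.56, 8.70 and 8.24 on LFD; at 12 weeks it read 7.97, 8.02, 7.96 and 8.01 on HFD and 8.37, 8.61, 8.41 and 8.29 on LFD. Each LFD array lay above every HFD array of the same time. The differences of -0.48 ± 0.23 and -0.43 ± 0.23 did not pass the test (limma, adjusted p = 0.364 at 8 weeks).

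The interferon-inducible GTPases attack the membranes of intracellular pathogens, and most respond strongly to interferon gamma. Their diet differences at 8 weeks were 0.18 for Gbp3, 0.03 for Gbp5, 0.26 for Gbp7, 0.34 for Igtp and 0.29 for Irgm1, with none called. At 12 weeks Irgm1 was 0.34 ± 0.17 higher, Gbp3, Gbp5 and Gbp7 differed by 0.02, 0.11 and -0.06, and Igtp by -0.19. The sign of Igtp at 12 weeks depended on the arrays used: it was 0.37 among those without high hepatocyte transcripts, 1 mouse per diet.

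The chemokines Cxcl9 and Cxcl10 draw Cxcr3-bearing T and NK cells into tissue. Cxcl10 in HFD mice at 8 weeks read 6.71, 6.34, 7.08 and 6.64, above LFD values of 5.75, 6.00, 5.83 and 5.78. No array overlapped. The difference was 0.85 ± 0.20 (1.81-fold; limma, adjusted p = 0.0216). At 12 weeks HFD values of 6.30, 6.12, 6.71 and 5.90 overlapped LFD values of 5.98, 6.02, 5.72 and 5.77, and the difference was 0.38 ± 0.20. Averaged over time it was 0.52 ± 0.12 (limma, adjusted p = 0.00469), a call kept with any 1 array left out. The 8-week call was lost without HFD array 1 or 3 or LFD array 1, 3 or 4 (0.72 to 0.97). Cxcl9 was uneven: HFD mice at 8 weeks read 10.52, 9.57, 10.45 and 10.58 and LFD mice 9.38, 9.64, 10.25 and 9.43, a difference of 0.60 ± 0.36 with no call. Its 12-week difference was -0.22 over all arrays and 0.92 among those without high hepatocyte transcripts, where HFD array 3 read 10.56 and LFD array 3 read 9.64.

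Parp14, a mono-ADP-ribosyltransferase, read 9.05, 8.73, 9.09 and 9.12 on HFD and 8.21, 8.49, 8.38 and 8.62 on LFD at 8 weeks, and 9.05, 8.92, 9.30 and 9.10 against 8.57, 8.52, 8.53 and 8.52 at 12 weeks. The diets were apart at both times, and at 4 weeks they overlapped (8.88, 8.54 and 8.77 against 8.51, 8.79, 8.75 and 8.79). The difference averaged over time was 0.38 ± 0.10 (limma, adjusted p = 0.0154), with 0.57 ± 0.17 at 8 weeks and 0.56 ± 0.17 at 12 weeks not passing on their own (adjusted p = 0.0821 and 0.0673). The averaged call was kept with any 1 array left out. Ifi35, an interferon-induced leucine zipper protein, was 0.20 ± 0.10 higher at both times, Xaf1, which promotes apoptosis, 0.23 and 0.38, and Rtp4, a receptor-transporting protein, 0.30 and 0.26; none was called.

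Markers of some immune cells, and of fat and connective tissue, also differed between the diets. Other lists differed little at 8 weeks. Their means on HFD and LFD were 6.02 and 6.05 for conventional dendritic cells and 4.78 and 4.75 for B cells. They were 4.28 and 4.22 for neutrophils and 9.32 and 9.32 for endothelium. At 12 weeks the means of these lists, in the same order, were 6.06 and 5.92, 4.82 and 4.64, 4.31 and 4.25, and 9.27 and 9.23. In bulk tissue fewer cells of a type and less RNA per cell cannot be told apart. The 18 macrophage genes averaged 8.91 to 9.53 in HFD mice at 8 weeks against 8.33 to 8.48 in LFD mice, and 8.97 to 9.52 against 8.07 to 8.44 at 12 weeks, with no overlap at either time. Of these genes 17 were above 0 at both times, 5 called at 8 weeks (27.8%, against 1.17% of all genes) and 14 at 12 weeks (77.8%, against 3.13%), with medians of 0.64 and 0.94; at 4 weeks limma called 0, 3 were higher at an unadjusted p under 0.05, and the median was 0.30. Natural killer genes (7) averaged 5.09 to 5.31 in HFD and 4.68 to 4.92 in LFD mice at 8 weeks, with 1 of 7 called (14.3%, against 1.17%). T cell genes (8) averaged 5.27 to 5.71 against 4.93 to 5.23 there, with 0 called by limma and 2 higher at an unadjusted p under 0.05. At 12 weeks the natural killer list was again apart (4.98 to 5.37 against 4.72 to 4.81), and the T cell list overlapped (5.25 to 5.98 against 4.96 to 5.45). Genes of plasmacytoid dendritic cells, a main source of type I interferon, averaged under the middle of the array in every group. At 8 weeks the list averaged 4.67 to 4.78 in HFD and 4.45 to 4.64 in LFD mice, without overlap. It averaged 4.51 to 5.12 in the other groups. Of its genes only Cox6a2 was higher in every HFD array at 8 weeks. Siglech overlapped there, at 5.27, 5.35, 5.26 and 5.32 on HFD and 5.42, 5.26, 5.35 and 5.05 on LFD. The adipocyte list was lower in every HFD array at 8 weeks (12.03 to 12.09 against 12.16 to 12.35) and overlapped at 12 weeks (11.94 to 12.08 against 12.04 to 12.24). The fibroblast and progenitor list (7) was 9.57 to 10.02 against 9.45 to 9.60 at 8 weeks and higher in every HFD array at 12 weeks (9.71 to 9.84 against 9.13 to 9.49). With the macrophage mean as a covariate in limma, 0 of 35 members were called at 8 weeks, 12 weeks or on average, the medians were 0.07, -0.16 and -0.11, and at an unadjusted p under 0.05 there were 1 higher and 0 lower, 1 and 3, and 1 and 2. The weight of this covariate is set by differences among arrays of the same group, the chow arrays (7.48 and 8.47) included. Within groups the macrophage mean and the member mean had a correlation of 0.64 over 25 arrays and 0.39 over the 23 without chow. At 8 and 12 weeks no LFD array reached the macrophage mean of an HFD array. What the covariate removed there cannot be told apart from diet. The part of cell numbers in the members' differences was not tested beyond this.

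**Figure D4:**
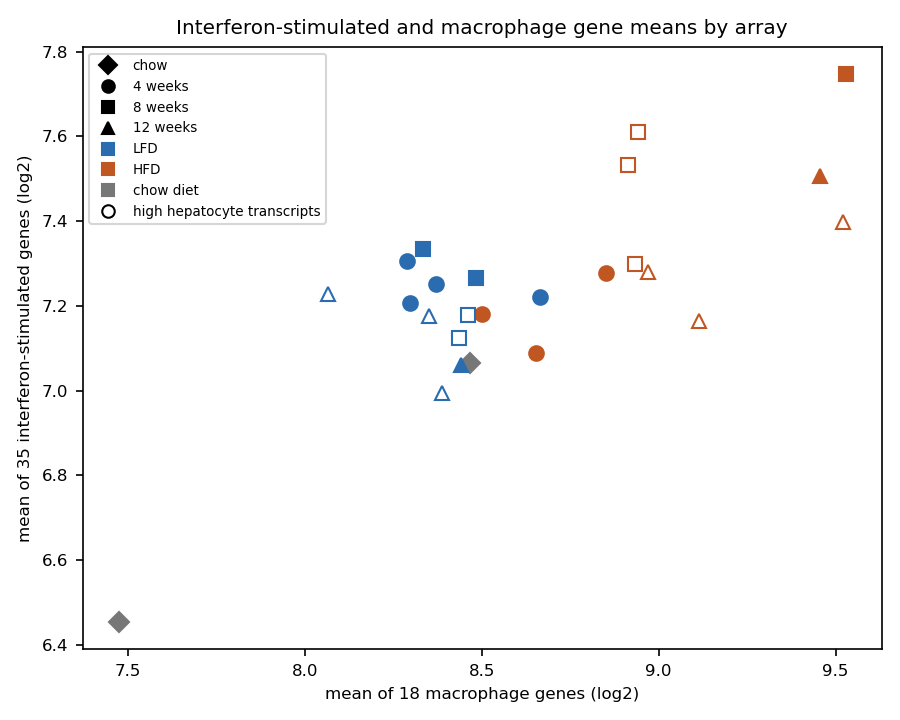
Mean of the 35 interferon-stimulated genes (vertical) against the mean of 18 macrophage genes (horizontal), both log2, for each of the 25 arrays; colour marks diet, shape the time, and open symbols the 11 arrays with high hepatocyte transcripts. HFD arrays at 8 and 12 weeks lie to the right of all LFD arrays (8.91 or more against 8.66 or less). The member means of the diets overlapped at 8 weeks (HFD 7.30 to 7.75, LFD 7.12 to 7.33). They also overlapped at 12 weeks (7.17 to 7.51 and 7.00 to 7.23). The highest member mean (7.75) is HFD 8-week array 1, and chow array 1 lies alone at the lower left.

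The liver-type transcripts ran in opposite directions at the 2 later times. The median diet difference of the 27 hepatocyte genes was 1.97 at 8 weeks and -1.55 at 12 weeks. The members' medians were above 0 at both. After each group's mean was taken off, the hepatocyte mean and the member mean had a correlation of -0.50 over the 23 arrays on LFD or HFD. Other lists reached a like size: natural killer cells 0.56, T cells 0.55, Kupffer cells of the liver -0.45, neutrophils 0.41 and macrophages 0.39. The remaining lists lay between -0.35 (B cells) and 0.18 (fibroblasts and progenitors). The part of liver-type tissue in the members' differences was not tested beyond the fits given here. Among arrays with high hepatocyte transcripts the members' median was 0.34 at 8 weeks and 0.16 at 12 weeks, and among the others 0.41 and 0.45. The subset without high hepatocyte transcripts held 1 HFD array (array 1, the one with the highest macrophage mean) and 2 LFD arrays at 8 weeks and 1 array per diet at 12 weeks, so its values rest on single HFD arrays. In the arrays with and without high hepatocyte transcripts, Cxcl10 at 8 weeks was 0.81 and 0.91, Zbp1 0.71 and 1.34, Ifi209 0.75 and 1.53, and Oasl1 at 12 weeks 0.57 and 0.74. At 8 weeks none of the 3 passed limma's adjusted p in either subset. At 12 weeks Ifi209 and Oasl1 passed among the arrays with high hepatocyte transcripts (adjusted p = 0.000841 and 0.0497) and not among the others (0.759 and 0.790). All 5 averaged calls were lost in arrays without high hepatocyte transcripts, where limma gave Ifi209 0.79 ± 0.24 (adjusted p = 0.170), Cxcl10 0.74 ± 0.20 (0.132), Oasl1 0.60 ± 0.15 (0.0861), Parp14 0.45 ± 0.21 (0.477) and Ddx58 0.21 ± 0.12 (0.629). Zbp1 was called there instead, at 0.77 ± 0.16 (adjusted p = 0.0476).

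Within a diet, a few members differed between times. Age cannot be told apart from time on diet here, since the labels give 16, 20 and 34 weeks. All arrays with high hepatocyte transcripts were of 8 or 12 weeks. In LFD mice 0 members were called between 4 and 8 weeks (0.636% of all genes), 2 were higher at an unadjusted p under 0.05 (15.5% of all genes in either direction) and an analysis of variance called 0. Between 4 and 12 weeks 2 fell (5.71%; 0.383% of all genes called lower), and 25 of 35 were below 0 with a median of -0.14 (all genes 0.00). Irf7 dropped from 8.45, 8.24, 8.51 and 8.18 to 7.70, 7.95, 7.34 and 7.16, without overlap, a difference of -0.81 ± 0.16 (limma, adjusted p = 0.0210). That call was lost without LFD 4-week array 1 or 3 or LFD 12-week array 4 (-0.95 to -0.68 over the omissions). Ifi209 fell by 1.03 ± 0.23 (limma, adjusted p = 0.0393), a call lost in 7 of 25 omissions (-1.20 to -0.89): HFD 4-week array 1, LFD 4-week arrays 1, 2 and 3, and LFD 12-week arrays 1, 2 and 4. Neither call held when the hepatocyte split was a block or in arrays without high hepatocyte transcripts. In HFD mice 0 members were called at 8 against 4 weeks, and 0 of all genes (0%), although 32 of 35 were above 0 with a median of 0.28 (all genes 46.8% and -0.02). There 15 members were higher at an unadjusted p under 0.05 (8.85% of all genes in either direction), led by Isg15 with 0.74 ± 0.17 and Zbp1 with 1.01 ± 0.24 (limma, adjusted p = 0.236 for both); 8 passed the unadjusted analysis of variance with a fold of 1.5, and 0 the adjusted one. At 12 against 4 weeks 0 were called (0.573% of all genes), 5 were higher and 1 lower at an unadjusted p under 0.05 (11.2% of all genes), 29 of 35 were above 0, and the median was 0.12.

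The comparison with chow rests on 2 baseline arrays that differ widely. The members' log2 differences were above 0 for 30 of 35 on LFD (53.9% of all genes) and 31 of 35 on HFD (50.5%), with medians of 0.39 and 0.54. For the mean of the LFD groups 10 members were called higher (5.8% of all genes) and Isg20 lower (4.82%), and for the mean of the HFD groups 18 were called higher (9.41%) and again Isg20 lower (6.28%). These comparisons share the chow arrays. Both counts were 0 with array weights. With the macrophage covariate limma called 6 for LFD and 0 for HFD, where 7 were higher and 1 lower at an unadjusted p under 0.05; without the arrays with high hepatocyte transcripts it called 0 for LFD (13 higher and 1 lower unadjusted) and 9 for HFD. Gbp3 read 5.15 and 6.52 in chow and at least 6.87 in all 23 other arrays, with log2 differences of 1.44 ± 0.23 on LFD and 1.36 ± 0.23 on HFD (limma, adjusted p = 0.000909 and 0.000520). Ifit1 read 6.17 and 6.64 in chow and at least 6.88 elsewhere, and differed by 1.03 ± 0.20 and 1.11 ± 0.20. Ifi209 read 4.39 and 4.92 in chow and 4.90 or more elsewhere, and differed by 1.21 ± 0.25 and 1.83 ± 0.25. The 2 chow arrays lay at or near the bottom for these genes. The other members called higher on both diets were Zbp1, Usp18, Ifit2, Gbp5, Gbp7, Ifi35 and Rtp4.

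Chow array 1, the array with the strongest epididymis transcripts, was lower than chow array 2 for 31 of 35 members. It was also lower in the macrophage list (7.48 against 8.47), the endothelial list (8.19 against 9.56) and the adipocyte list (11.22 against 12.31); the part of these in the differences from chow was not tested beyond the covariate above. Without it limma called 0 members for LFD (7 higher and 1 lower at an unadjusted p under 0.05) and 4 for HFD (Usp18, Ifit2, Ifi35 and Ifi209), and without all 3 arrays that carry epididymis transcripts 1 and 6. Isg20 read 10.29 in chow array 1 and 8.52 in chow array 2, against 7.84 to 8.70 in all other arrays. Its difference of -1.06 ± 0.25 on LFD (limma, adjusted p = 0.0116) became -0.18 without chow array 1, and -1.30 ± 0.25 on HFD became -0.42. Gbp3 without that array differed by 0.76 and 0.67, neither called, and Ifih1 on HFD turned from 0.68 to -0.02.

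**Figure D5:**
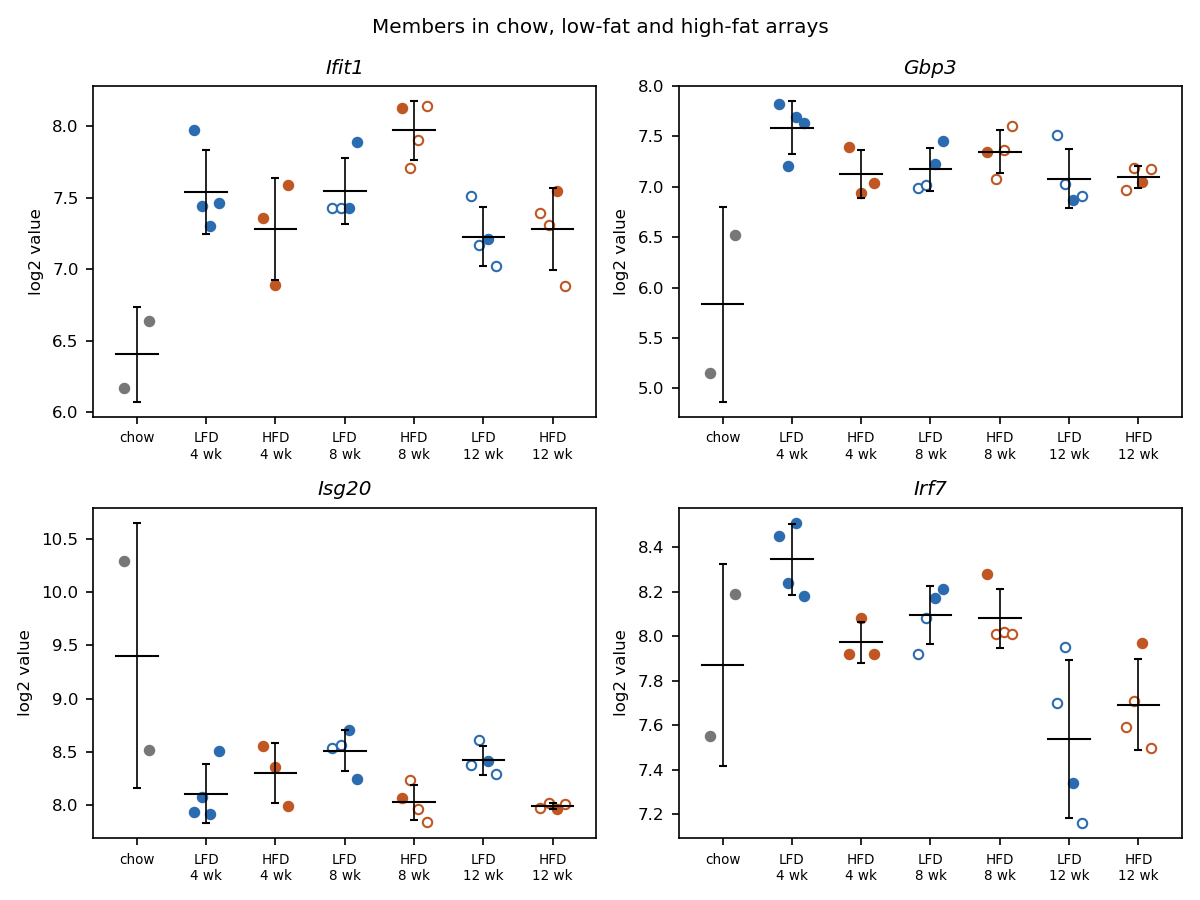
Log2 values of Ifit1, Gbp3, Isg20 and Irf7 by group; each point is 1 array, the bar is the mean, the whisker 1 SD, and open points are arrays with high hepatocyte transcripts. The 2 chow arrays are lowest for Ifit1 and Gbp3, 1 chow array stands far above the rest for Isg20 (10.29), and Irf7 is lower in LFD mice at 12 weeks than at 4 weeks.

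A further list of 94 pathway genes, 81 of them measured, placed the members among the ligands, receptors and signalling steps above them. Of the 21 interferon genes listed, 19 were measured and 13 had a mean below the middle of the array; Ifnb1 read 2.90 to 3.52 and Ifng 4.22 to 5.21. The ligand mean stayed between 4.38 and 4.56 in all 7 groups, and in limma 0 of 19 passed in any diet comparison (at an unadjusted p under 0.05, 1 was higher at 8 weeks and 1 lower at 12 weeks). In the whole list 0 of 81 were called at 4 weeks (2 higher at an unadjusted p under 0.05, 0 by analysis of variance), where the smallest p belonged to Ifitm2, Tlr3 and Jak1 (0.41, 0.28 and 0.27 higher). At 8 weeks 3 rose (3.70%, against 1.17% of all genes): Daxx, a transcriptional co-repressor, by 0.61 ± 0.13, Tlr3, the endosomal sensor of double-stranded RNA, by 0.55 ± 0.12, and Ifitm3, which blocks viral fusion, by 0.46 ± 0.10. This count moved from 0 without HFD array 1 or LFD array 1 of that time to 13 without either chow array.

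At 12 weeks 10 of the 81 rose (12.3%, against 3.13% of all genes) and 0 fell. The 4 with the smallest p were Ptpn6 (the phosphatase SHP-1, a brake on JAK signalling) by 0.76 ± 0.13, Tlr9, which senses CpG DNA, by 0.68 ± 0.12, Il10rb, a chain of the type III interferon receptor, by 0.55 ± 0.10, and Daxx by 0.70 ± 0.13 (limma, adjusted p of 0.00165 to 0.00226). Tlr9 read 6.83, 6.84, 7.19 and 6.70 in HFD mice and 6.12, 6.20, 6.24 and 6.29 in LFD mice, far apart. The others were Oas1g, Irf8, Slfn2, Unc93b1, Tlr7 and Epsti1. The part of cell numbers in these rises was not tested beyond the covariate fit given below. Averaged over time 15 rose (against 6.03% of all genes), led by Daxx (0.49 ± 0.08), Ptpn6 (0.47 ± 0.08), Irf8 (0.71 ± 0.12), a factor of myeloid cells, and Tlr3 (0.41 ± 0.07). Mavs, the adaptor below RIG-I and MDA5, fell by 0.36 ± 0.09 (limma, adjusted p = 0.00937; 4.44% of all genes called lower). By step, the average called 1 of 6 receptor genes, 7 higher and 1 lower of 16 signalling genes, 2 of 6 brakes and 5 of 34 further targets. Over time on LFD Ifitm2 fell by 0.68 from 4 to 12 weeks, and on HFD it fell by 0.93 while Tlr7 rose by 1.05 and Tlr9 by 0.63. With the macrophage mean as a covariate 0 of the 81 were called between the diets.

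The members varied together from mouse to mouse to a modest degree. Over the 23 arrays on LFD or HFD, after each group's mean was taken off, the median correlation of the 595 pairs was 0.26 and 477 pairs were above 0. Pairs within the type I class had a median of 0.30, within the gamma class 0.28 and between classes 0.18. Oas3 (0.81), Rtp4 (0.77) and Stat2 (0.76) followed the mean of the other members most closely, while Ifit3 (0.05), Gbp5 (0.03) and Isg20 (-0.35) did not. In HFD mice at 8 weeks array 1 was the highest for 17 of 35 members and array 2 the lowest for 26. Among 17011 genes outside the lists, the 5 whose deviations were most like the member mean over all 25 arrays were Tap1 (0.939), the peptide transporter of antigen presentation, H2-Q4 (0.867), an MHC class I gene, Tifab (0.865), Ptger2 (0.851), a prostaglandin E receptor, and Psmb8 (0.845), an immunoproteasome subunit. Without the chow arrays they stood at 0.901, 0.787, 0.765, 0.754 and 0.717, and the leading 5 were then Tap1, Bub1b (0.839), H2ac20 (0.819), Itgad (0.811) and H2-Q4, so that Tifab, Ptger2 and Psmb8 were among the first 5 only with the chow arrays included. These values are descriptions of arrays that share tissue composition, and carry no test.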

How the data were processed

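Total RNA of gonadal fat was labelled and hybridised to 25 arrays, per the labels' protocols. The authors deposited 1 table of log2 values, 34472 probe sets by 25 arrays, processed with the Transcriptome Analysis Console 4.0.2 per the submitters' processing notes and design text. Background correction and scaling between arrays were not given in the sources used here, and the log2 scale is read from the range of 1.73 to 14.13. GEO's platform annotation gave 23521 probe sets 1 symbol, 1814 several and 9137 none. For genes with more than 1 probe set (1082) the one with the highest mean was used, giving 22180 genes. No filter was applied.

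In limma 3.58.1 (R 4.3.3), 7 group means were fitted to all 25 arrays (18 residual degrees of freedom), and contrasts were tested with eBayes and Benjamini-Hochberg adjustment over all genes at 0.05. Differences are log2 ± standard error. Groups of 2 to 4 arrays limit the precision. The alternatives were another scaling, no dim genes, other probe set rules, trend and robust eBayes, array weights, a replicate block, covariates for hepatocyte and epididymis or macrophage genes, subsets of arrays, and the design text's analysis of variance (unadjusted p under 0.05 and a fold of 1.5), also adjusted. The test was also run on simulated data with independent noise and no other tissue, unlike these arrays. That run required only that the largest added changes be recovered. The main fit did not pair arrays by replicate number.

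Members, classes and lists were chosen with earlier results of these data known. Named genes were members called in any comparison (20 of 22) and, for each role, those with the smallest p among the uncalled (8). The other members are named to account for every gene. In the pathway list they were up to 4 called genes per direction with the smallest p, or the 3 smallest at 4 weeks; names beyond these were chosen after their values were seen. Marker lists for 13 cell types or tissues were used to describe the arrays, and raw intensity files were not used here.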

Additional observations from a re-analysis of the deposited data

Results flagged for a closer look

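Each value here is an array that stood apart from the 3 others of its group by Dixon's test at the 95% level. The test was run 180 times, on each of the 35 members and on their mean in every group of 4 arrays. It passed in 11 (6.11%), when chance gives about 1 in 20. The 180 tests reuse the same arrays and are not independent. HFD 8-week array 1 was the high one for Irf7 (8.28, next 8.02), Dhx58 (6.75, next 6.53) and Mx1 (4.84, next 4.03), and this array also had the highest macrophage mean of its group (9.53). HFD 8-week array 2 was the low one for Mx2 (4.53, next 5.23) and Cxcl9 (9.57, next 10.45). LFD 8-week array 4 was high for Ifih1 (9.31, next 8.98) and Ifit1 (7.89, next 7.43). LFD 4-week array 1, which carries some epididymis transcripts (5.46), was high for Irgm1 (6.52, next 6.19) and low for Parp14 (8.51, next 8.75). In HFD mice at 12 weeks array 1 was high for Dhx58 (6.55, next 6.19) and array 3 for Cxcl9 (10.56, next 9.37); array 3 was the only one of that group without high hepatocyte transcripts.

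Isg15 was lower in every HFD array than in every LFD array at 4 weeks (-0.39) and higher in every HFD array at 8 weeks (0.29). The test of this change, the diet by time interaction in limma, gave an unadjusted p of 0.0199 and an adjusted p of 0.886.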

How the results depend on the processing

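Groups of 2 to 4 arrays limit every count here, and probe sets near the middle of the array, Mx1 and Mx2 among the members, limit what can be seen of dim genes. The count of members called at 4 weeks stayed at 0 under every alternative. Shares of all genes under each alternative are not given in this section. A count that moved need not be particular to the members. For 8 weeks (3 members) it was 1 after centring on array medians, 6 with array weights, 5 with hepatocyte and epididymis covariates, 5 without the 3 arrays with epididymis transcripts, 0 in either hepatocyte subset, 0 with the macrophage covariate, and 0 to 5 with 1 array left out. For 12 weeks (2) it was 6 in the compared groups alone, 4 without dim genes, 1 with all probe sets tested, 4 with array weights, 5 without the 3 arrays, 4 in the adjusted analysis of variance, 0 in arrays without high hepatocyte transcripts, 0 with the macrophage covariate, and 1 to 4 with 1 array left out. For the average (5) it was 1 in arrays without high hepatocyte transcripts (Zbp1, none of the 5), 0 with the macrophage covariate, 1 in the unadjusted analysis of variance with a fold of 1.5, and 5 to 7 with 1 array left out. The interaction gave 1 with the hepatocyte split as a block. The medians moved to 0.0659 (8 weeks), -0.16 (12 weeks) and -0.11 (average) with the macrophage covariate and to 0.45 (12 weeks) in arrays without high hepatocyte transcripts. With 1 array left out they ran from 0.19 to 0.35, 0.18 to 0.28 and 0.12 to 0.17, and from -0.08 to 0.01 at 4 weeks.

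For LFD at 12 against 4 weeks (2) the count was 0 in the compared groups alone, with the hepatocyte and epididymis covariates, with the hepatocyte block and in arrays without high hepatocyte transcripts, 1 after centring, without the 3 arrays and in the adjusted analysis of variance, and 0 to 3 with 1 array left out. The unadjusted analysis of variance gave 8 and 2 for HFD at 8 and 12 against 4 weeks. For LFD against chow (11) the count was 7 in the compared groups alone, 0 with array weights, with the hepatocyte and epididymis covariates and in arrays without high hepatocyte transcripts, 1 without the 3 arrays, 6 with the macrophage covariate, 0 without chow array 1 and 20 without chow array 2. For HFD against chow (19) it was 12, 0, 9, 9, 6 and 0 under the same 6 settings and 4 to 26 with 1 array left out. Pathway genes at 8 weeks (3) gave 1 after centring, 10 without dim genes, 5 with trend and robust eBayes, 12 with array weights, 12 with the hepatocyte and epididymis covariates, 9 with the hepatocyte block, 1 and 0 in arrays with and without high hepatocyte transcripts, 15 without the 3 arrays, 0 with the macrophage covariate, 7 and 9 in the adjusted and unadjusted analysis of variance, and 0 to 13 with 1 array left out. At 12 weeks (10) they gave 0 in arrays without high hepatocyte transcripts, 16 without the 3 arrays, 0 with the macrophage covariate and 9 to 15 with 1 array left out, and on average (16) 3, 20, 0, 3 in the unadjusted analysis of variance, and 13 to 21.

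Signs turned for Dhx58 (-0.16) and Isg15 (-0.16) at 12 weeks with the macrophage covariate, for Igtp (0.37) and Cxcl9 (0.92) at 12 weeks in arrays without high hepatocyte transcripts, and for Ifih1 against chow on HFD without chow array 1 (-0.0172; 1.37 without chow array 2) or without the 3 arrays (-0.0267). The cause was not tested. In the main fit the replicate numbers were not used. Over 67 pairs of like-numbered arrays the median correlation of deviations was 0.05, against -0.02 for pairs with other numbers. The like-numbered values ran from -0.61 to 0.71, and 29 exceeded 0.1. The 3 arrays with epididymis transcripts were all number 1, and the 12-week arrays without high hepatocyte transcripts were both number 3. Whether the numbers mark a batch was not tested. With the replicate block the counts were 3, 2 and 5 members at 8 weeks, 12 weeks and on average and 10 and 17 against chow; Oasl1 at 12 weeks was no longer called. High-hepatocyte arrays alone could not give the 4-week, averaged, interaction or chow results, and the analysis of variance was not run against chow.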
